A study of Mus musculus with 23 samples.

Results

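The genes described here are those of Schwann cells, the glia of peripheral nerve, and of the myelin they make. They are 7 genes chosen by name: Mbp, Prx, Mal, Pmp22, Sox10, Egr2 and Ngfr. All 7 were found among the 54446 genes of a table of raw counts, and all 7 among the 15624 genes of a second table of log2 values. The study sequenced RNA of mouse skeletal muscle in 2 sets of libraries, and its title asks which transcription factors control proteasome genes. The first set held denervated muscle of PAX4 KO mice (3 libraries), denervated muscle of WT mice (3 libraries) and innervated control muscle of WT mice (3 libraries). The second set held denervated muscle from mice labelled NRF1PAL KD (3 libraries), NRF1PAL-PAX4 double KD (3 libraries) and WT con (2 libraries). Every denervated library in both sets was taken at 10 d after denervation, so the second set has no innervated muscle to set against it. Which muscle was taken, how old the mice were, their strain, and how the knockout and knockdowns were made are not stated in the labels. Nothing in the labels says that libraries of 1 group came from separate animals, so the tests measure the spread between libraries.

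Schwann cells wrap motor axons in myelin, and they depend on contact with the axon to go on making it. SOX10 is the transcription factor that gives the Schwann cell lineage its identity, and EGR2 acts with it to switch on the genes of the myelin sheath. When a nerve is cut, Schwann cells beyond the injury are known to stop making myelin and to take on an immature or repair state, in which the receptor NGFR is made again. Muscle holds Schwann cells in its intramuscular nerve branches and at the neuromuscular junction, and they are a small share of its cells. In RNA from whole muscle, fewer cells of a type and less RNA per cell cannot be told apart.

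Total counts per library ran from 21716216 to 42821396 in the first set, and recovered reads from 23740769 to 30165765 in the second. Muscle fibre markers (Acta1, Ckm and 5 others) summed to 43095 to 112053 CPM in the first set, where CPM is a library's counts scaled to a common total. Oligodendrocyte markers, which would mark myelin of the central nervous system, were near 0: Mog, Mobp, Opalin, Ermn and Olig2 together reached at most 0.105 CPM in any library. No read of Pax4 was counted in any of the 9 first-set libraries, and Nrf1 was at 476 to 524 normalised counts in NRF1 KD muscle and 427 to 454 in double KD muscle, against 444 and 488 in WT con muscle. Pax4 therefore does not check the genotype labels. Nrf1 was well counted, and both knockdown groups overlapped WT con muscle, so its RNA does not show the knockdown named in the labels. Of the denervated WT libraries, library 1 held more of 8 macrophage markers (787 CPM, against 378 and 384 in the others). Innervated library 2 held more of 9 genes of denervated fibres (339 CPM, against 67.5 and 86.3). Results that rest on the first set were therefore also computed without both of these libraries.

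The 7 genes gave 3 kinds of test result on denervation, and differences between genes were not tested. The myelin genes Mbp, Prx, Mal and Pmp22 fell in WT denervated muscle at 10 d, with log2 fold changes of -3.46 to -1.27. Ngfr rose. Sox10 and Egr2, the transcription factors, did not pass the test. Thus 4 of 7 members were called lower and 1 higher in WT denervated against WT innervated muscle, called meaning a Benjamini-Hochberg adjusted p under 0.05 in edgeR's quasi-likelihood test over all 16146 genes tested. Of all genes tested, 15.8% were called lower and 16.5% higher, with a median log2 fold change of 0.02.

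**Figure D1:**
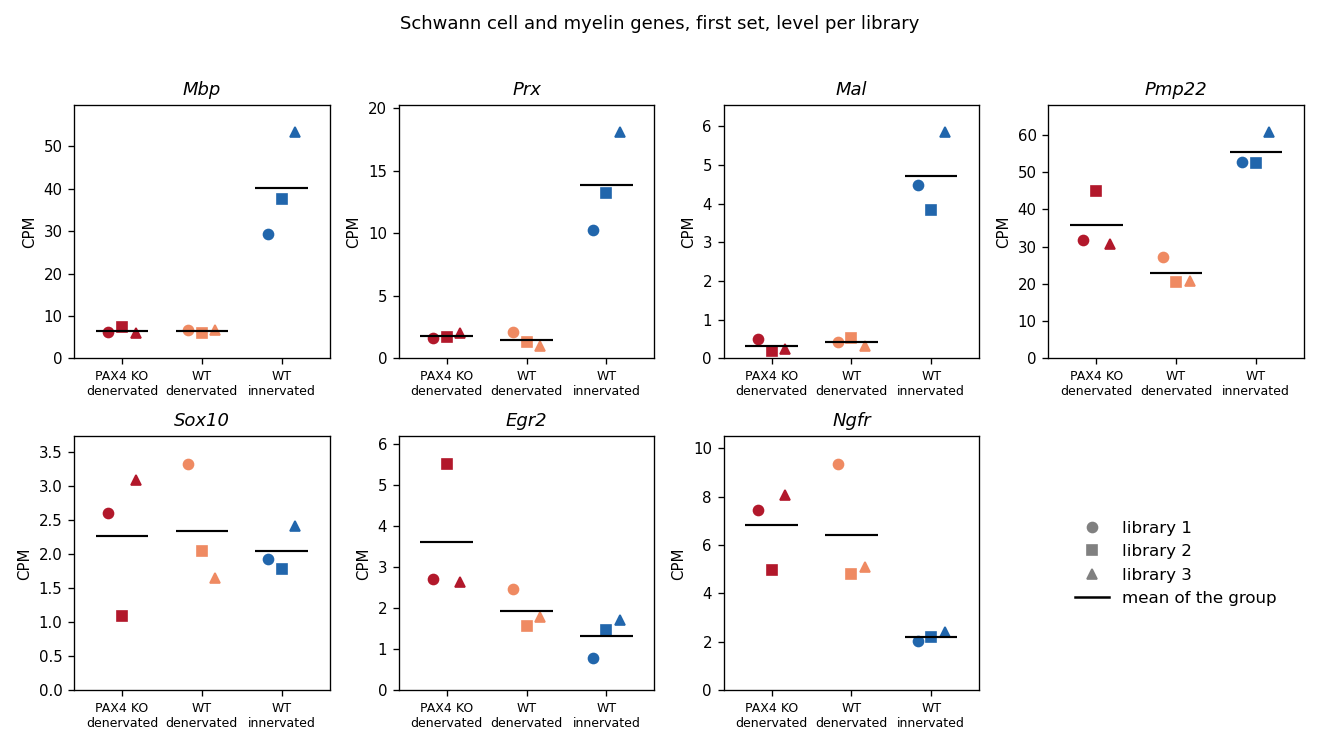
Level of each of the 7 genes in every library of the first set, in CPM on a linear axis from 0, for PAX4 KO denervated, WT denervated and WT innervated muscle; symbols give the library and bars the mean of the group. For Mbp, Prx, Mal and Pmp22 all 6 denervated libraries sit below all 3 innervated ones, and for Ngfr all 6 sit above. For Sox10 the groups overlap. The share of all genes with such a separation was not counted.

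Mbp encodes myelin basic protein, which holds the layers of compact myelin together (GRCm38 chromosome 18, 82475146 to 82585637). It was at 6.62, 6.07 and 6.73 CPM in WT denervated libraries 1 to 3, against 29.2, 37.5 and 53.5 CPM in WT innervated libraries 1 to 3. The 3 denervated libraries were tightly grouped, while innervated library 3 was well above library 1, and the groups did not overlap. The log2 fold change was -2.63 ± 0.20 (SE), with an adjusted p of 6.86e-05, which is 6.19-fold lower in denervated muscle.

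Prx encodes periaxin, a Schwann cell protein that anchors the outer surface of the sheath (chromosome 7, 27499324 to 27520214). Its levels were 2.09, 1.31 and 0.995 CPM in WT denervated muscle, against 10.2, 13.2 and 18.1 CPM in WT innervated muscle. Innervated library 3 was again the highest, and the lowest innervated library stood well above the highest denervated one. Its log2 fold change was -3.23 ± 0.30 (adjusted p = 1.20e-04).

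Mal encodes a small proteolipid that sorts lipids and proteins to the myelin membrane (chromosome 2, 127633226 to 127656695). It had 18, 19 and 12 counts in WT denervated libraries (0.433, 0.532 and 0.314 CPM), against 91, 140 and 168 counts in WT innervated libraries (4.48, 3.84 and 5.86 CPM). The groups did not overlap, and of the 7 genes Mal had the log2 fold change farthest below 0, at -3.46 ± 0.36 (adjusted p = 2.17e-04). Its counts in denervated muscle were the lowest of any member, so its level there is the least precise.

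Pmp22 encodes peripheral myelin protein 22, a membrane protein of compact myelin that many other cell types also make (chromosome 11, 63128982 to 63159547). It was at 27.3, 20.6 and 20.9 CPM in WT denervated muscle, against 52.7, 52.6 and 60.9 CPM in WT innervated muscle. All denervated libraries were lower, but the gap was narrower than for the other myelin genes. The log2 fold change was -1.27 ± 0.17 (adjusted p = 5.67e-04). Its 95% interval, -1.64 to -0.90, did not reach those of Mbp (-3.08 to -2.18), Prx (-3.89 to -2.57) or Mal (-4.26 to -2.66), although the differences between genes were not tested.

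To show the sequence in front of the genes that fell together, the 250 bases before a RefSeq start (GRCm38.p6) of Prx, Mal and Pmp22 are printed on the strand of the gene, from chr7:27499074-27499323 (plus strand), chr2:127656696-127656945 (minus strand) and, for the most upstream of 4 starts of Pmp22, chr11:63128732-63128981 (plus strand). Capitals mark matches, on either strand, to an EGR-type motif spelled GTGGGNG or a SOX-type motif spelled ACAANG.
Prx: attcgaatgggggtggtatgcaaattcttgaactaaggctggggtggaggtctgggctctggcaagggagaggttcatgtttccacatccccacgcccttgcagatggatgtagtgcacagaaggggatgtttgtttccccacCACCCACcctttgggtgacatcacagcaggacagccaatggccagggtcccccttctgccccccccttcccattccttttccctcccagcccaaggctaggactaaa
Mal: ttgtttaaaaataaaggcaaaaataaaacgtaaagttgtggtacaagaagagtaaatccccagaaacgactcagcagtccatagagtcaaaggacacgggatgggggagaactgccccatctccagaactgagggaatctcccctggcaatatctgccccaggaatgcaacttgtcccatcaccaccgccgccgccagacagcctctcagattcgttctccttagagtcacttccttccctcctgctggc
Pmp22: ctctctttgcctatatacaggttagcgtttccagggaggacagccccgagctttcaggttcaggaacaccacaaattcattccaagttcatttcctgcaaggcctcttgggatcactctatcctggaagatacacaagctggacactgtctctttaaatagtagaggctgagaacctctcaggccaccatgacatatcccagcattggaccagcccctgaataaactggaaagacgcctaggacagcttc
The Prx window held 1 match to the EGR-type letters, on the reverse strand, and the other windows none. None of the 3 windows held the SOX-type letters. For scale, 28.1% of 32851 RefSeq windows of the same length held GTGGGNG on either strand and 36.3% held ACAANG. A match or its absence in so short a window is a description of letters and says nothing about where a factor binds.

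Ngfr encodes the low-affinity neurotrophin receptor p75, low in myelinating Schwann cells and high in immature and repair ones (chromosome 11, 95568818 to 95587735). It was at 9.36, 4.78 and 5.08 CPM in WT denervated muscle, against 2.02, 2.19 and 2.41 CPM in WT innervated muscle. Each denervated library lay above each innervated one, and denervated library 1 was the highest. This was a log2 fold change of 1.54 ± 0.29 (adjusted p = 0.00324), or 2.90-fold. Without denervated library 1, which also held the most of the macrophage markers, it was 1.16 and still called (adjusted p = 0.00606). The part of those cells in the level of Ngfr was not tested.

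Sox10 (chromosome 15, 79154908 to 79165240) was at 3.32, 2.04 and 1.65 CPM in WT denervated muscle, against 1.92, 1.78 and 2.41 CPM in WT innervated muscle. The groups overlapped, with the highest and the lowest value both in denervated libraries. The log2 fold change was 0.20 ± 0.38 (adjusted p = 0.722). Its 95% interval, -0.64 to 1.04, includes changes of either sign and lies wholly above the intervals of all 4 myelin genes. Without denervated library 1 and innervated library 2 the value changed sign, to -0.23.

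Egr2, also called Krox20 (chromosome 10, 67535475 to 67542188), was at 2.48, 1.57 and 1.78 CPM in WT denervated muscle, against 0.788, 1.48 and 1.71 CPM in WT innervated muscle. The groups overlapped at their edge, and innervated library 1 was the lowest. The fitted log2 fold change was 0.53 ± 0.37 with a 95% interval of -0.30 to 1.36 (adjusted p = 0.306). Egr2 is also made by macrophages and fibroblasts after stimulation, and which cells it came from here was not tested.

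Set against Sox10 in the same library, the myelin genes differed between the groups in the same way as in CPM. These ratios are given as a description, with no test. Mbp was at 1.99, 2.97 and 4.08 times the CPM of Sox10 in WT denervated libraries, against 15.2, 21.1 and 22.2 times in WT innervated libraries. Prx was at 0.630, 0.644 and 0.603 times in denervated muscle, against 5.33, 7.43 and 7.52 times in innervated muscle. By highest over lowest, the denervated libraries differed less in this ratio than in CPM for Prx, but more for Mbp, Mal and Pmp22. Mal ran from 0.130 to 0.260 times, against 2.15 to 2.43 times. Pmp22 ran from 8.23 to 12.7 times, against 25.3 to 29.5 times, and Ngfr from 2.34 to 3.08 times, against 1.00 to 1.23 times. For these 5 genes no denervated ratio overlapped an innervated one, as was already so in CPM, whereas for Egr2 the ranges met (0.746 to 1.08, against 0.410 to 0.831). The share of all genes with no overlap between these groups, in such a ratio or in CPM, was not counted. The lack of overlap is therefore not read as particular to these genes.

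**Figure D2:**
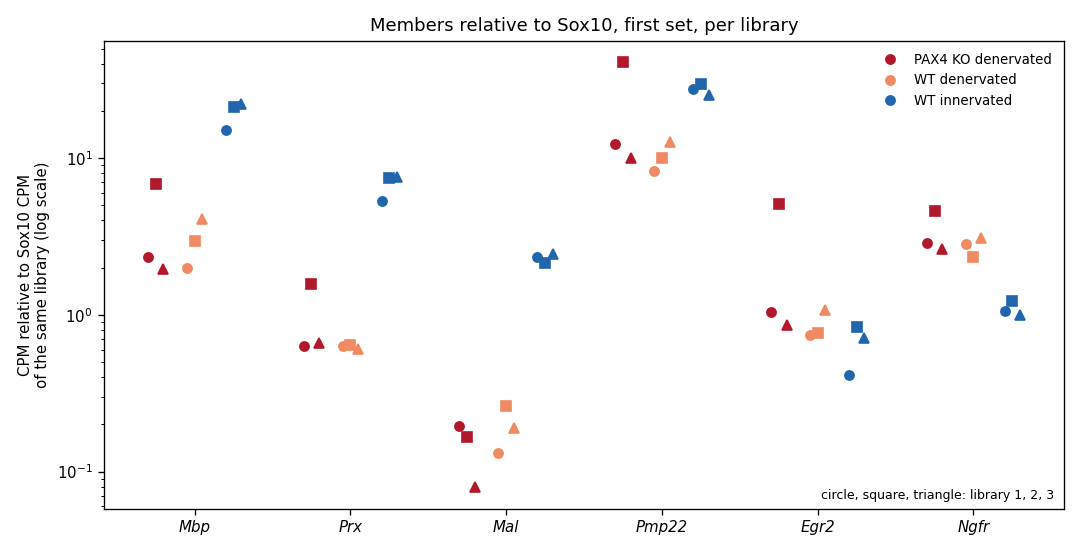
CPM of 6 members divided by the CPM of Sox10 in the same library, on a log axis, for PAX4 KO denervated (red), WT denervated (orange) and WT innervated (blue) muscle. In WT muscle the ratios of Mbp, Prx, Mal and Pmp22 are lower in all 3 denervated libraries than in all 3 innervated ones, those of Ngfr are higher, and those of Egr2 overlap.

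Per kilobase of exon, the order of the genes was not the same in denervated as in innervated muscle. In WT denervated muscle Pmp22 was first (9.74 ± 1.63 CPM per kb, SD), and Ngfr second (1.86 ± 0.74). Then came Sox10 (0.766 ± 0.287), Mbp (0.764 ± 0.042) and Egr2 (0.572 ± 0.141), whose ranges overlapped from each to the next, and last Prx (0.263 ± 0.101) and Mal (0.153 ± 0.039), which overlapped too. In WT innervated muscle Pmp22 was first (23.5 ± 2.0 CPM per kb), followed by Mbp (4.73 ± 1.45), Prx (2.48 ± 0.71) and Mal (1.70 ± 0.37), the last pair overlapping. Sox10 (0.667 ± 0.107) and Ngfr (0.640 ± 0.056) overlapped, and Egr2 (0.390 ± 0.141) was last. Lengths are of all annotated exons of a gene, which for Mbp include exons of its longer transcripts, so its level per kb is a low estimate for the myelin transcript.

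Among the libraries, innervated library 3 held the highest value of all 7 genes within its group. In WT denervated muscle, library 1 held the highest value of 5 of the 7 (Pmp22, Prx, Sox10, Egr2 and Ngfr). Over the 9 libraries of the first set, log2 CPM of Mbp, Prx and Mal correlated with r of 0.966 to 0.982 for each pair, and Pmp22 with these 3 at 0.767 to 0.869. Ngfr ran against Mbp (r = -0.891), and Sox10 against none of the 4 myelin genes beyond -0.210. The libraries share their groups, so these r mainly restate the gap between innervated and denervated muscle. Among 13043 other genes, those most like the mean of the members were Kmt2d (r = 0.980), Naa40 (0.976) and Kif1a (0.973). Among genes of the lists used here, Art3 was most like Mal (0.99), the smooth muscle gene Acta2 was close to Mbp (0.952), and Myadm most like Pmp22 (0.928). Gldn was most like Ngfr (0.936) and Btc most like Sox10 (0.708). Egr2 was most like Vcam1 (0.964) and the collagen gene Col1a1 (0.943), which are genes of other cell types.

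Other genes of myelin moved with the members. Of 26 further genes of myelin and myelinating Schwann cells, 22 were measured, of which 14 were called lower and 2 higher. Among all genes 15.8% were called lower and 16.5% higher. The median log2 fold change of the list was -0.87, against 0.02 for all genes. Art3 and Ncmap were among the genes of this list with the lowest adjusted p. Ncmap, a protein of noncompact myelin, had 5, 1 and 3 counts in WT denervated libraries, against 20, 48 and 71 in WT innervated libraries, a log2 fold change of -4.31 ± 0.52 (adjusted p = 3.85e-04). Art3, an ADP-ribosyltransferase family gene that muscle fibres also express, averaged 40.9 ± 0.8 CPM in WT denervated muscle and 259 ± 44.6 CPM in WT innervated muscle (SD, n = 3 each), which on the log2 scale is -2.66 ± 0.15 (adjusted p = 2.30e-05).

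The 2 called higher were Gldn, which encodes gliomedin of the node of Ranvier (1.52 ± 0.33, adjusted p = 0.00668), and Aspa, which encodes aspartoacylase (0.86 ± 0.28, adjusted p = 0.0399). Aspa was called in 9 of 13 alternative analyses. Requiring a mean of 5 CPM left 7 genes of the list called lower, since fewer were tested, and the other alternatives gave 12 to 18.

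Of 15 Schwann cell transcription factors and neuregulin receptors, 11 were measured, with 1 called higher and 2 lower (median 0.24). The list was thus near all genes, of which 16.5% were called higher and 15.8% lower. Sox2, a factor of immature Schwann cells that opposes myelination, was called higher, with 26, 13 and 10 counts in WT denervated libraries, against 0, 1 and 0 in WT innervated libraries. Over the summed counts, 49 against 1, the ratio per count sequenced was 45.0. Its 95% exact interval, 7.71 to 1813, covers counting error only. Ratios per count sequenced use the total counts of all genes without the TMM factor, unlike CPM. Nab1, a corepressor of EGR proteins, was at -0.56 ± 0.17 (adjusted p = 0.0288), and Dhh, a Schwann cell signal to the perineurium, at -0.97 ± 0.31 (adjusted p = 0.0372). The call was lost in 4 of 13 alternatives for Nab1 and in 8 of 12 for Dhh. Erbb3, the neuregulin receptor of Schwann cells, and Cdh19, a cadherin of the lineage, are named after their values were seen: neither passed (0.29 ± 0.17 and 0.59 ± 0.37, adjusted p = 0.239 and 0.251).

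Of 15 genes of immature and repair Schwann cells, 13 were measured, with 4 called higher, none lower, and a median of 0.82. Among all genes 16.5% were called higher and 15.8% lower. Olig1, a factor switched on in repair Schwann cells, had 53, 31 and 26 counts in WT denervated libraries, against 0, 1 and 0 in WT innervated libraries. The summed counts, 110 against 1, gave a ratio of 101 per count sequenced, with a 95% exact interval of 17.8 to 4025. Olig2, its partner in oligodendrocytes, was among the markers near 0. Gdnf, a growth factor for motor neurons, was at 3.47, 3.55 and 4.45 CPM in denervated libraries, against 0.640, 0.685 and 1.05 CPM (2.26 ± 0.32, adjusted p = 7.46e-04). Jun, the central regulator of the repair state, averaged 134 ± 19 CPM in WT denervated muscle and 62.4 ± 15.0 CPM in WT innervated muscle (1.10 ± 0.19, adjusted p = 0.00196). Jun, Gdnf and Ncam1, the other gene called, are also made by denervated muscle fibres, and all 9 markers of denervated fibres were called higher in the same libraries. The share of these transcripts that comes from Schwann cells was not tested. DESeq2 also called 1 gene of this list lower.

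**Figure D3:**
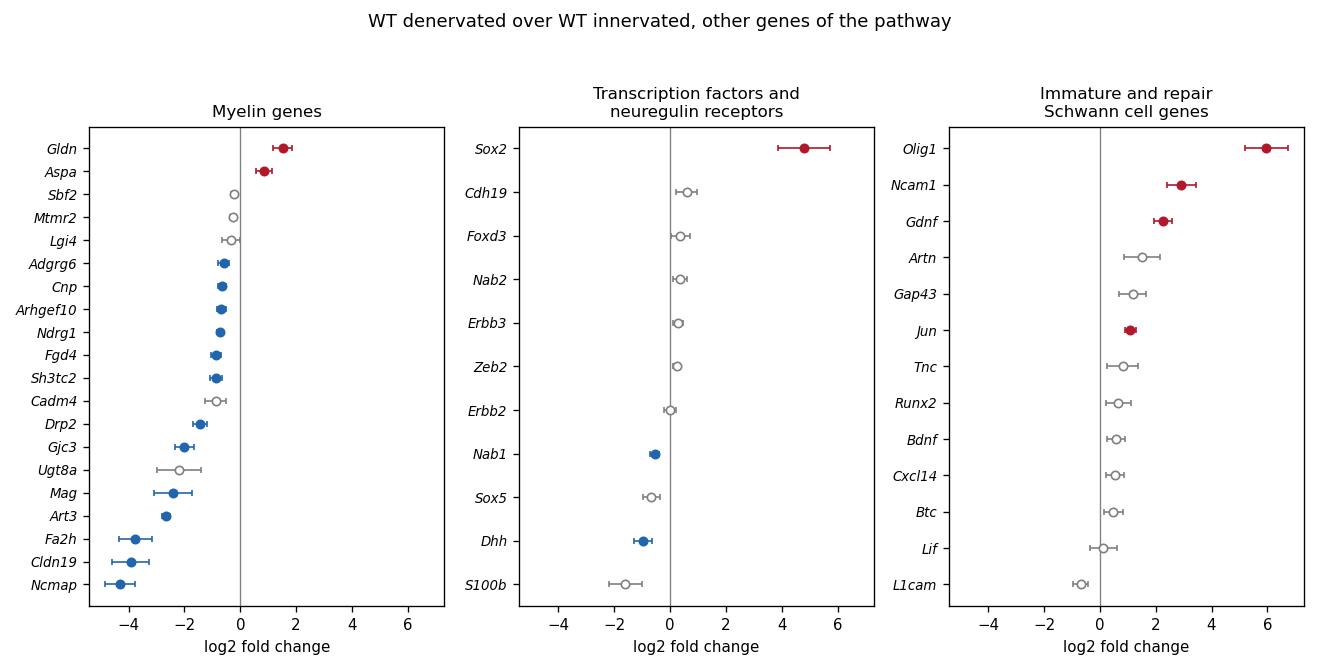
Log2 fold change (WT denervated over WT innervated, edgeR) with its standard error for measured genes of 3 lists; filled blue symbols were called lower, filled red higher, and open grey symbols did not pass. Ncmap, Cldn19 and Fa2h lie farthest to the left among the myelin genes drawn; the fitted values of Sox2 and Olig1, with 1 count in all innervated libraries, depend on the prior count.

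Markers of other cells moved between these groups too, where 16.5% of all genes were called higher and 15.8% lower. Of 8 macrophage markers 6 were called higher in WT denervated muscle, where they summed to 378 to 787 CPM, against 105 to 321 CPM in WT innervated muscle. Of 8 endothelial markers 7 were called lower (464 to 643 CPM, against 873 to 985 CPM). The fibroblast list summed to 2122 to 2567 CPM, against 2521 to 3471 CPM, with 1 of 8 higher and 2 lower. Other lists fell beside the myelin genes. Of 7 smooth muscle and pericyte markers 6 were called lower (634 to 769 CPM, against 1109 to 1422 CPM), of 7 adipocyte markers 4 (280 to 348 CPM, against 463 to 480 CPM), and of 7 muscle fibre markers 4 (55265 to 64778 CPM, against 90540 to 112053 CPM). Pmp22 is also made by endothelial cells and fibroblasts, and the part of any of these cells in the fall of the members was not tested.

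In denervated muscle of PAX4 KO mice, no member passed the test against WT denervated muscle. With edgeR 0 of 7 were called in either direction, and 2 had an unadjusted p under 0.05, as had 12.9% of all genes. DESeq2 also called 0. Of all genes tested, 0% were called lower and 0.0186% higher, which is 3 genes. Mbp was at 6.09, 7.46 and 6.01 CPM in PAX4 KO denervated libraries 1 to 3, within a log2 difference of 0.01 from WT denervated muscle (95% interval -0.44 to 0.45). Prx was at 1.63, 1.71 and 2.03 CPM (0.28, interval -0.37 to 0.94), and Mal at 0.507, 0.182 and 0.244 CPM (-0.43, interval -1.32 to 0.46). All of these overlapped the WT denervated libraries given above.

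The 2 members with an unadjusted p under 0.05 were Pmp22 and Egr2. Pmp22 was at 31.7, 44.9 and 30.8 CPM in PAX4 KO denervated muscle, against 27.3, 20.6 and 20.9 CPM in WT denervated muscle. The groups did not overlap, and KO library 2 was the highest. The log2 fold change was 0.64 ± 0.17 (adjusted p = 0.267). Without a filter on low counts edgeR called it (adjusted p = 0.0172), and the authors' deposited table gives it a log2 value of 0.637 with an adjusted p of 0.0247. Without KO library 2 the value was 0.45 (adjusted p = 0.667).

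Egr2 was at 2.71, 5.53 and 2.64 CPM in PAX4 KO denervated muscle, against 2.48, 1.57 and 1.78 CPM in WT denervated muscle. Here too the groups did not overlap and KO library 2 stood apart from the other 2. The log2 fold change was 0.89 ± 0.36 (adjusted p = 0.360), and 0.46 without that library. KO library 2 also held the most of the fibroblast markers (6713 CPM, against 3017 and 3160 CPM in the other KO libraries) and of the macrophage markers (1229 CPM, against 690 and 843 CPM). It held the least Sox10 (1.09 CPM, against 2.59 and 3.08) and the least Ngfr (4.99 CPM, against 7.47 and 8.06). Relative to Sox10, Pmp22 was thus at 41.1 times in KO library 2, above every innervated library, and at 12.2 and 10.0 times in the other KO libraries, below every innervated library. The part of these cells in the levels of Pmp22 and Egr2 was not tested.

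Sox10 differed between PAX4 KO and WT denervated muscle by -0.04 (95% interval -0.87 to 0.79) and Ngfr by 0.10 (-0.51 to 0.70), with overlapping libraries. Alternatives called at most 1 gene of the repair list higher in PAX4 KO against WT denervated muscle. In the main fit none of the genes of the myelin, transcription factor and repair lists was called there. The smallest unadjusted p belonged to Sbf2, Mtmr2's partner in phosphoinositide control (0.25 ± 0.11), to S100b (0.95 ± 0.59) and to Tnc, tenascin C (1.26 ± 0.55). The lowest adjusted p among them was 0.379.

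Set against WT innervated muscle, the PAX4 KO denervated libraries gave 4 members lower (Mbp, Prx, Mal and Pmp22) and 2 higher (Ngfr and Egr2), where 18.2% of all genes tested were called lower and 21.8% higher. This comparison shares its innervated libraries with the WT comparison, so the values are given side by side and no overlap is drawn from them. Mbp was at -2.62 ± 0.20 (adjusted p = 4.56e-05), Prx at -2.95 ± 0.29 (1.12e-04) and Mal at -3.89 ± 0.38 (1.01e-04). Pmp22 was at -0.63 ± 0.17 (adjusted p = 0.0126) in KO muscle, against -1.27 ± 0.17 in WT muscle. Ngfr was at 7.47, 4.99 and 8.06 CPM, all above the innervated libraries (1.63 ± 0.29, adjusted p = 0.00189). Egr2 was at 1.42 ± 0.37 (adjusted p = 0.0126), against 0.53 ± 0.37 in WT muscle, where it did not pass. The difference between these values, which is the PAX4 KO against WT denervated comparison, did not pass either. Sox10 was at 0.16 ± 0.38 (adjusted p = 0.767).

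**Figure D4:**
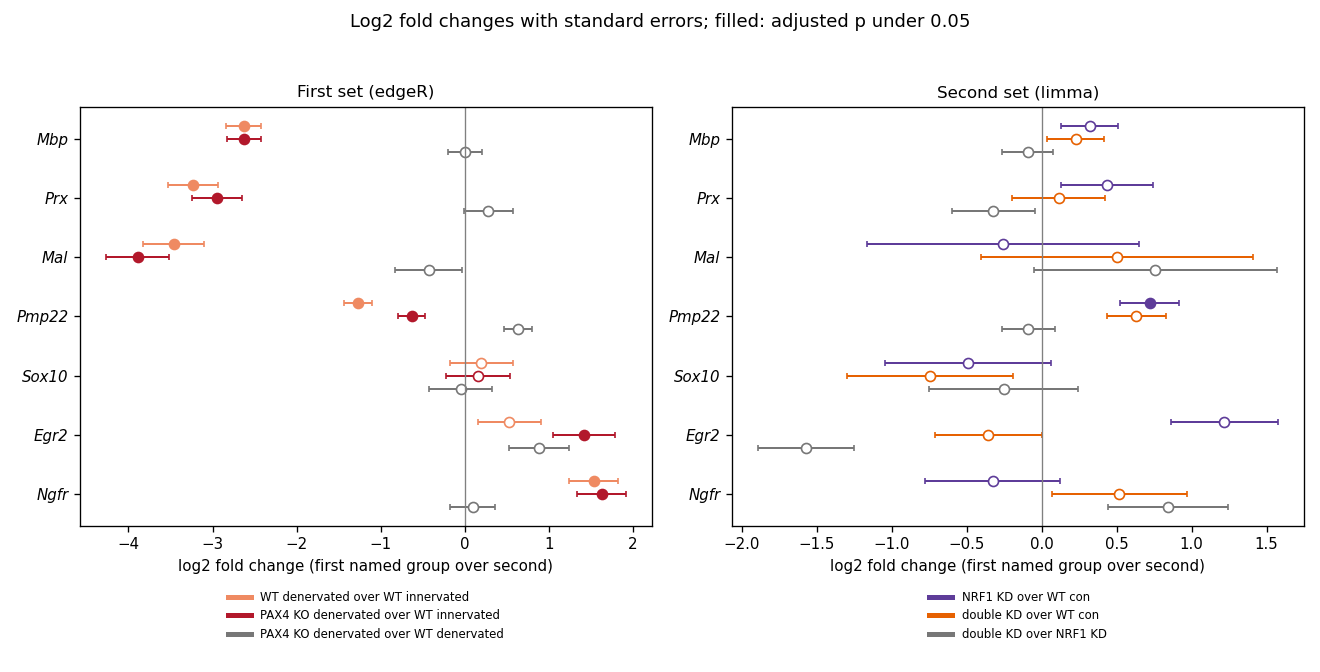
Log2 fold changes of the 7 genes with standard errors in all 6 comparisons, the first set (edgeR) on the left and the second set (limma) on the right; filled symbols have an adjusted p under 0.05. In the first set Mbp, Prx, Mal and Pmp22 lie left of 0 and Ngfr right of 0 for both denervated groups over WT innervated muscle; in the second set Pmp22 in NRF1 KD muscle is the one filled symbol.

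In the second set all muscle was denervated, and the question is how the knockdowns differed from WT con muscle. Levels are normalised counts, which are reads divided by the size factors of the authors' processing, tested with limma on log2 of the value plus 1. Of the 7 members 1, Pmp22, was called higher in NRF1 KD muscle and none lower (7.58% of all 15624 genes were called higher and 3.72% lower). No member was called in either direction in double KD muscle, where 2.39% of all genes were called higher and 1.7% lower. Between double KD and NRF1 KD muscle no member was called, where 0.0768% of all genes were called higher and 0.0576% lower. By unadjusted p under 0.05 the numbers were 2, 1 and 1 of 7, where 27.6%, 21.4% and 11.2% of all genes passed in the same 3 comparisons, and edgeR on the recovered reads called 1, 0 and 0. Both knockdown comparisons share the 2 WT con libraries.

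Pmp22 was at 700, 851 and 987 normalised counts in NRF1 KD libraries 1 to 3 and at 929, 819 and 644 in double KD libraries 1 to 3, against 436 and 593 in WT con libraries 2 and 3. Every knockdown library lay above both WT con libraries. The share of all genes with such a separation in the second set was not counted. In NRF1 KD muscle the log2 fold change was 0.72 ± 0.20 (adjusted p = 0.0409). The call was lost without NRF1 KD library 2 (adjusted p = 0.104) or 3 (0.154), without WT con library 2 (0.292) and with a block for the library number (0.127). In double KD muscle it was 0.63 ± 0.20 (adjusted p = 0.0961), and double KD against NRF1 KD gave -0.09 with a 95% interval of -0.48 to 0.30. The authors' deposited table has log2 values of 0.717 for NRF1 KD (adjusted p = 0.00717) and 0.630 for double KD (adjusted p = 0.0358).

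The macrophage markers moved with Pmp22 in these libraries. All 8 were called higher in NRF1 KD muscle and 1 of 8 in double KD muscle. They summed to 15879 to 33020 normalised counts in NRF1 KD and 12564 to 19738 in double KD muscle, against 6877 and 9261 in WT con muscle. The fibroblast markers summed to 54825 to 78417 and 45781 to 92114, against 26716 and 53252. The endothelial markers, none of 8 called in either knockdown, summed to 9162 to 11915 and 6685 to 10080, against 6180 and 10068. In each group the library with the most Pmp22 held the most of the macrophage, fibroblast and endothelial markers alike. The part of these cells in the level of Pmp22 was not tested.

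Egr2 was at 132, 220 and 151 normalised counts in NRF1 KD muscle and at 55.0, 57.2 and 51.1 in double KD muscle, against 109 and 44.6 in WT con muscle. All NRF1 KD libraries were higher than all double KD and WT con libraries, and the WT con libraries lay on either side of the double KD ones. In NRF1 KD against WT con muscle the log2 fold change was 1.22 ± 0.36 (adjusted p = 0.0532), which did not pass. Without WT con library 2 it was 1.85 (adjusted p = 0.0197) and without WT con library 3 it was 0.58 (adjusted p = 0.285). The authors' deposited table gives 1.13 with an adjusted p of 0.0197. In double KD against NRF1 KD muscle it was -1.57 ± 0.32 (adjusted p = 0.104). Fitted on those 2 groups alone the adjusted p was 0.0194. Egr1, a relative of Egr2 induced by many stimuli, was at 0.93 ± 0.27 in NRF1 KD against WT con muscle (adjusted p = 0.0506) and at -0.95 ± 0.24 in double KD against NRF1 KD muscle (adjusted p = 0.171).

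Mbp was at 174, 188 and 218 normalised counts in NRF1 KD muscle and at 180, 214 and 152 in double KD muscle, against 155 and 153 in WT con muscle. The NRF1 KD libraries all lay above both WT con libraries, by 0.32 on the log2 scale (95% interval -0.10 to 0.74, adjusted p = 0.307). Prx was at 58.6, 51.9 and 47.6 in NRF1 KD and at 56.1, 39.9 and 32.6 in double KD muscle, against 34.8 and 42.7 in WT con muscle. Its NRF1 KD libraries also all lay above both WT con libraries, by 0.44 ± 0.31 on the log2 scale (adjusted p = 0.395). For neither gene did double KD muscle stand apart from WT con muscle. The differences were 0.23 for Mbp (-0.20 to 0.65) and 0.11 for Prx (-0.57 to 0.80). The share of all genes whose NRF1 KD libraries all lay above both WT con libraries was not counted.

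Mal and Sox10 had low counts. Both, and Ngfr, varied more among the double KD libraries than the other members did. Mal had 5, 12 and 6 reads in NRF1 KD and 11, 32 and 3 in double KD muscle, against 3 and 18 in WT con muscle. Sox10 was at 27.8, 21.5 and 24.2 normalised counts in NRF1 KD and at 20.9, 39.9 and 9.78 in double KD muscle, against 22.9 and 52.4 in WT con muscle. Ngfr was at 53.8, 61.7 and 66.0 in NRF1 KD and at 98.9, 218 and 59.8 in double KD muscle, against 59.9 and 96.0 in WT con muscle.

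In all 3 of these genes double KD library 2 was the highest and library 3 the lowest of their group, and WT con library 3 was above library 2. NRF1 KD libraries lay close together for Sox10 and Ngfr. No difference of these 3 members passed the test, and the intervals are wide: for Sox10 -1.72 to 0.74 in NRF1 KD and -1.97 to 0.48 in double KD against WT con muscle, for Ngfr -1.32 to 0.67 and -0.48 to 1.51, and for Mal -2.27 to 1.75 and -1.51 to 2.51.

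**Figure D5:**
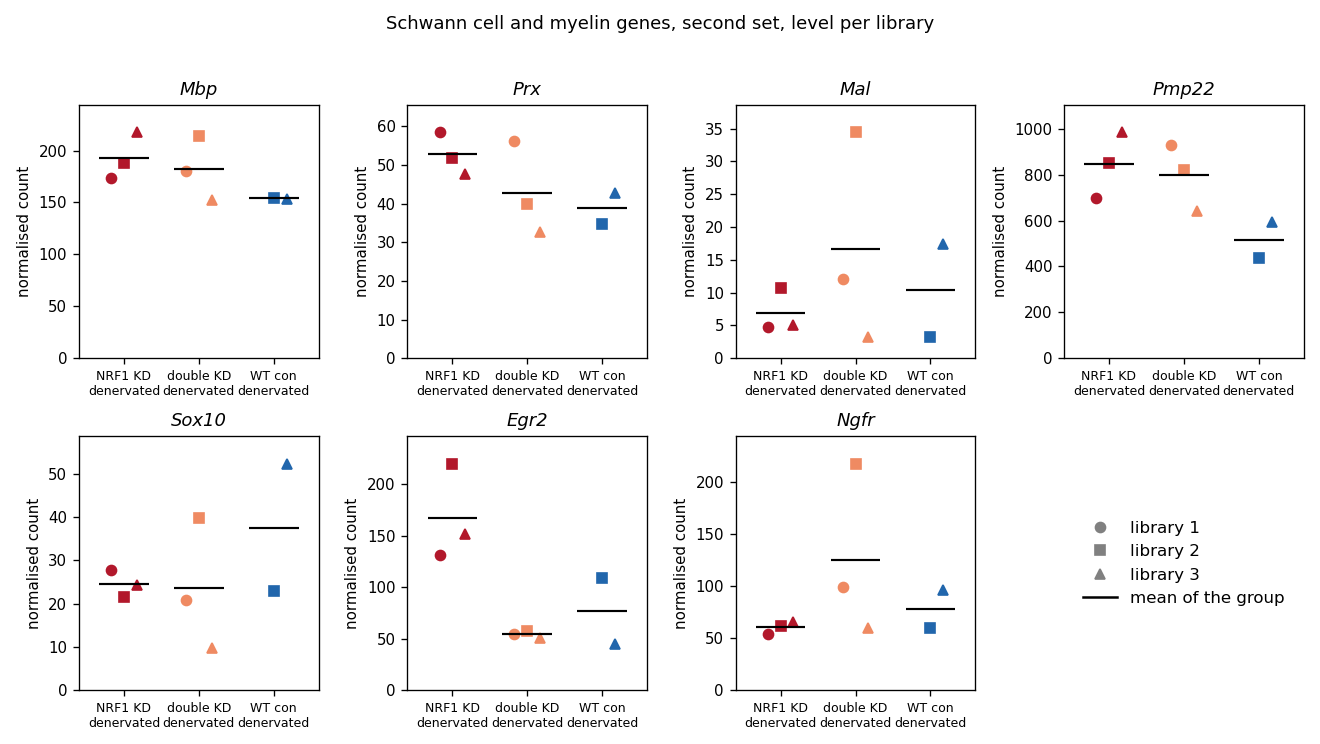
Level of each of the 7 genes in every library of the second set, in normalised counts on a linear axis from 0, for NRF1 KD, double KD and WT con denervated muscle; symbols give the library and bars the mean of the group. The 6 knockdown libraries of Pmp22 lie above both WT con libraries, and the 3 NRF1 KD libraries of Egr2 lie above all others. The share of all genes with such separations was not counted. Double KD library 2 is the highest of its group for 5 genes (Mal, Sox10, Ngfr, Mbp and Egr2).

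Other genes of the pathway passed about as often as genes in general in NRF1 KD against WT con muscle. Over the myelin, transcription factor and repair lists, 4 of 42 measured genes were called higher (9.52%) and 2 lower (4.76%), beside 7.58% and 3.72% of all genes. In double KD against WT con muscle 2 were higher and 1 lower, beside 2.39% and 1.7% of all genes. Of 18 myelin genes measured, 1 was called higher and 1 lower in NRF1 KD against WT con muscle, with a median of 0.29. Adgrg6, a receptor that Schwann cells need to start myelination, was at 85.5, 85.9 and 118 normalised counts in NRF1 KD muscle, against 38.1 and 44.6 in WT con muscle (1.19 ± 0.31, adjusted p = 0.0348). Aspa fell in both knockdowns, by 0.57 in NRF1 KD (adjusted p = 0.0208) and by 0.72 in double KD muscle (adjusted p = 0.0182). Of 11 transcription factors and receptors, Nab2, the EGR corepressor (0.66 ± 0.18, adjusted p = 0.0396), and Zeb2, a factor that represses inhibitors of myelination (0.63 ± 0.17, adjusted p = 0.0396), were higher in NRF1 KD muscle, and none was called in double KD muscle.

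Of 13 immature and repair genes, Tnc was higher in NRF1 KD (1.35 ± 0.24, adjusted p = 0.00833) and in double KD muscle (1.14 ± 0.24, adjusted p = 0.0308). Jun was lower in NRF1 KD muscle, at 5296, 6032 and 5520 normalised counts, against 6996 and 9629 in WT con muscle (-0.55 ± 0.13, adjusted p = 0.0238). Of 9 markers of denervated fibres 5 were called lower and 1 higher in the same comparison. Of all genes 3.72% were called lower there and 7.58% higher. The 9 markers summed to 59559 to 74206 normalised counts in NRF1 KD muscle, against 122591 and 133016 in WT con muscle. Their part in the level of Jun was not tested. Ncam1 was higher in double KD muscle (0.46 ± 0.11, adjusted p = 0.0453). The call was kept in 4 of 10 alternatives for Adgrg6, in 5 of 11 for Nab2, Zeb2 and Ncam1, and in 7 of 11 for Jun. It was kept in 10 of 11 for Tnc and 6 of 11 for Aspa in NRF1 KD muscle, and in 6 of 11 for Tnc and 8 of 11 for Aspa in double KD muscle. Between double KD and NRF1 KD muscle no gene of these 3 lists was called. The smallest p there were for Mag (-1.54 ± 0.54), Cdh19 (1.03 ± 0.37) and Ncam1 (0.30 ± 0.10), with adjusted p of 0.297, 0.309 and 0.271.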

How the data were processed

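RNA-seq values of 17 libraries were used, 9 in a first set and 8 in a second. The labels list 6 more samples that are not analysed here. The first set was used as the authors' deposited raw counts per gene. The second set was deposited by the authors as log2 values on DESeq2's variance-stabilised scale. Builds GRCm38 and mm10 are named per the submitters' processing notes, while the aligner and the counter are not stated in them. The authors' deposited DESeq2 columns also give a mean signal per gene (baseMean), a test score, log2 fold changes and p-values. The sign of the fold change in their first-set table is not stated in its header. Library numbers of the first set follow the order of the numbers in the column names and do not tie a column to a single sample. Libraries 1 to 3 of WT denervated and of WT innervated muscle carry the same column numbers (127, 139 and 143). The labels do not say what these numbers mean, and the main fit treats the libraries as unpaired.

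Counts were tested with edgeR 4.0.16 (TMM, filterByExpr, quasi-likelihood F-test, all 3 groups in one fit) in R 4.3.3. The second set's transformation was inverted to normalised counts, which gave whole reads within 0.05 for 100% of values, and limma 3.58.1 (trend) was fitted to log2 of normalised count plus 1. The p-values were adjusted by Benjamini-Hochberg over all genes of a set. Errors beside fold changes are standard errors of the fit, and intervals are 95%. DESeq2 1.42.0 served as an alternative, beside other filters, scalings, pseudocounts and left-out libraries. The scripts were tested on simulated data.

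Named genes were all members, and of each list up to 3 called genes per direction with the lowest adjusted p, or the gene with the lowest p where none was called. Members and lists were chosen with earlier results of these data known. Some genes of the myelin list are counted in its totals but not reported here by name.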

Additional observations from a re-analysis of the deposited data

How the results depend on the processing

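The 11 calls of members against WT innervated muscle were kept in 134 of 134 refits that tested them; a minimum mean of 5 CPM left some members untested. The call of Pmp22 in NRF1 KD muscle was kept in 7 of 11. The number of members higher there was 0 to 1 when leaving out 1 library and 0 with the replicate block, and without WT con library 2 the member called was Egr2 (1.85, adjusted p = 0.0197) in place of Pmp22. No filter on low counts gave 1 member higher in PAX4 KO against WT denervated muscle, a minimum mean of 5 CPM gave 1 higher in PAX4 KO against WT innervated muscle, and fitting only the groups compared gave 1 lower in double KD against NRF1 KD muscle. Values that were not called and changed sign were as follows, and the cause was not tested. Mbp in PAX4 KO against WT denervated muscle was -0.023 with DESeq2's size factors, -0.024 with DESeq2 and -0.0081 with no filter. Without WT denervated library 1 and innervated library 2, Sox10 was -0.23 in WT denervated against innervated muscle and 0.30 in PAX4 KO against WT denervated muscle. Prx in double KD against WT con muscle was -0.028 with the replicate block.

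Leaving out 1 library at a time, PAX4 KO against WT denervated muscle gave -0.098 to 0.060 for Mbp, -0.074 to 0.47 for Ngfr and -0.33 to 0.30 for Sox10. Sox10 ran from -0.14 to 0.40 in WT denervated and from -0.13 to 0.48 in PAX4 KO against innervated muscle. Against WT con muscle, NRF1 KD gave -1.31 to 0.80 for Mal, -1.07 to 0.090 for Sox10 and -0.66 to 0.010 for Ngfr, and double KD gave -0.093 to 0.29 for Prx, -0.56 to 1.56 for Mal and -0.99 to 0.28 for Egr2. Double KD against NRF1 KD gave -0.21 to 0.028 for Mbp, -0.22 to 0.058 for Pmp22 and -0.72 to 0.24 for Sox10.

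Whether libraries with the same column number are paired is not stated in the labels. In WT muscle, deviations from the group mean correlated with r of 0.197, 0.0596 and 0.336 for libraries of the same number. Each of these lay above the r for libraries of different numbers, -0.233 to 0.0358. In the second set r was -0.219 to 0.141 for the same number and -0.167 to 0.219 for different ones. With 2 WT con libraries the deviations mirror each other, so each r with WT con recurs with its sign turned. These ranges therefore cannot tell whether libraries are paired. Deviations cancel within every group, so in both sets the r for same and different numbers are not independent. With a block for the number, 5058 genes were called in WT denervated against innervated muscle, against 5210 without it. With the replicate block, all-gene calls in NRF1 KD against WT con muscle were 117 lower and 513 higher, against 581 and 1184 without it, and in double KD against WT con muscle 56 and 80, against 265 and 373. Fitting only the groups compared gave 85 and 146 there, and 34 and 45 in double KD against NRF1 KD muscle, against 9 and 12. In PAX4 KO against WT denervated muscle DESeq2 called 192 genes in either direction and edgeR without a filter 456, against 3. Few reads limit Mal and Sox10, and 2 WT con libraries limit the second set.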

Other observations

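Single genes of nerve growth factor signalling, of the cells around nerve fibres and of axons differed between WT denervated and WT innervated muscle, where 32.3% of all genes were called in either direction. Of 12 neurotrophins and receptors, 11 were measured, with 5 called lower and 1, Gdnf, higher (median -0.44). Ret, the signalling receptor for GDNF, was at 4.81, 3.36 and 3.43 CPM in WT denervated libraries, against 19.2, 14.2 and 12.3 CPM in WT innervated libraries (-1.97 ± 0.22, adjusted p = 2.99e-04). The groups did not overlap, and Ret and its ligand Gdnf thus changed in opposite directions. Ntf5, which encodes neurotrophin 4, was at 2.48, 1.23 and 0.995 CPM, against 5.81, 5.98 and 5.79 CPM (-1.89 ± 0.30, adjusted p = 0.00138). Ntrk3, the receptor of neurotrophin 3, was at -1.64 ± 0.38 (adjusted p = 0.00907).

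Of 10 perineurial and endoneurial genes, 3 were called higher and 1 lower, a share near that of all genes. Sox9 was at 5.97, 9.54 and 10.0 CPM in WT denervated libraries, against 0.739, 1.97 and 1.32 CPM in WT innervated libraries (2.61 ± 0.35, adjusted p = 5.95e-04). Slc2a1, a glucose transporter of the perineurium and of many other cells, was at 0.86 ± 0.11 (adjusted p = 4.53e-04) and Apod at 1.57 ± 0.43 (adjusted p = 0.0194, called in 10 of 13 alternatives). Itgb4, the laminin receptor subunit of Schwann cells and perineurium, fell (-1.23 ± 0.23, adjusted p = 0.00332). Of 12 axon and motor neuron genes only 4 were measured, and Uchl1 was called higher (2.54 ± 0.53, adjusted p = 0.00514). Of the EGR family Egr1 was called higher (1.74 ± 0.37, adjusted p = 0.00553), and of the MAL and PMP22 families Myadm was called lower (-0.78 ± 0.17, adjusted p = 0.00683). In PAX4 KO against WT denervated muscle no gene of these lists was called by edgeR in the main fit. An unadjusted p under 0.05 was found for 7, where 12.9% of all genes had one. Of these 7, 4 were among the 6 genes measured of the MAL and PMP22 families. Alternatives called up to 2 genes of those families higher, and up to 1 each of the neurotrophin and perineurial lists. Emp3, a relative of Pmp22, was higher in NRF1 KD muscle (1.34 ± 0.26, adjusted p = 0.0105, kept in 10 of 11 alternatives), as was Ntf5 (0.97 ± 0.26, adjusted p = 0.0374, kept in 3 of 10).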
